A study of Mus musculus with 2 samples.

Results

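The 10 genes described here encode the subunits of the transcription factor NF-κB and proteins that regulate it. They are Nfkb1, Nfkb2, Rel, Rela and Relb among the subunits, Nfkbia, Nfkbib, Nfkbid and Nfkbiz among the IκB proteins, and Tnfaip3. They were taken by name, out of 20720 protein-coding genes with a start site on chromosomes 1 to 19. An open-chromatin peak belonged to one of them if it was the gene with the nearest protein-coding start site within 100 kb of the peak's summit, or if the peak lay within 1 kb of its start site. That rule gave 229 of the 179414 peaks of the TAMo library and 195 of the 127423 peaks of the vehicle library, and 171 regions with a peak in both libraries, of 103828 such regions in all.

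NF-κB is a family of dimeric transcription factors that bind short κB sites in DNA. In resting cells IκB proteins hold many of these dimers inactive, and in T cells signals from the antigen receptor and its costimulatory receptors lead to degradation of the IκB proteins and release of the dimers. Several genes of the system, Nfkbia and Tnfaip3 among them, are themselves known NF-κB targets and act as negative feedback.

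Open chromatin was mapped by ATAC-seq, an assay whose transposase cuts and tags accessible DNA, in wild-type mouse OT-I cells, CD8+ T cells whose transgenic receptor recognises the ovalbumin peptide OVA257-264. In the TAMo culture these cells were kept with that peptide and TAMos, defined in the labels by the surface phenotype CD11b+ Ly6G- Ly6C-high and taken from spleens, not tumours, of mice carrying LLC (Lewis lung carcinoma) tumours; in the vehicle culture they were kept with the peptide and vehicle. Both cultures lasted 48 h, ended with a sort of the T cells, and gave 1 library each from about 50000 cells. The age of the mice and the number of animals behind each culture are not given in the labels, and no peptide-free culture was analysed here.

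With 1 library per group no difference below has a replicate check, and no test between the groups was made. Ratios compare read coverage at the summits, in the TAMo library over the vehicle library, each divided by its own background coverage (5.80 reads in the TAMo library and 4.71 reads in the vehicle library). The 95% intervals are exact binomial (Clopper-Pearson) intervals and cover counting error only, since reads are not independent molecules. A ratio of at least 2-fold either way (log2 of at least 1 or at most −1) is given as a size and not as a test. In a sorted population, more cells with an open site and a more open site per cell cannot be told apart. Median summit coverage was 93 reads in the TAMo library and 81 reads in the vehicle library.

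All 12 T cell markers examined, Cd3e, Cd8a and Lck among them, had a promoter peak in both libraries, with summed promoter coverage of 1252 times background in the TAMo library and 1201 times background in the vehicle library. Of 15 myeloid markers on these chromosomes, 7 had a promoter peak in the TAMo library and 4 in the vehicle library, with single promoters at 3.45 to 114 times background and a sum of 241 in the TAMo library, against 3.82 to 108 and a sum of 147 in the vehicle library. Lyz2, Ly6c2, Mpeg1, Ccr2, Tyrobp, Fcer1g and Cd300c had no promoter peak in either library. Csf1r, Itgam, Adgre1 and Clec4e had one in the TAMo library only and Fcgr1 in the vehicle library only. The 3 markers with overlapping promoter peaks were Cd14, Spi1 and Cd68. Cd14 had 411 reads in the TAMo library and 141 reads in the vehicle library (log2 1.24), at summits 338 bp apart. Spi1 had 57 reads in the TAMo library and 25 reads in the vehicle library (log2 0.89). Cd68 had 661 reads in the TAMo library and 510 reads in the vehicle library (log2 0.07, −0.10 to 0.24). Cd68 was the highest single promoter in each library, at 114 times background in the TAMo library and 108 in the vehicle library. Of 8 B cell markers, 6 had a promoter peak in the TAMo library and 4 in the vehicle library (sums of 141 times background in the TAMo library and 131 in the vehicle library), and Cd79a was among those with none in either. The part of other cells in the ratios below was not tested.

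The first comparison concerned the promoters. All 10 genes had a promoter peak in both libraries, at 402 to 1252 reads in the TAMo library and 371 to 966 reads in the vehicle library, and none of the 10 ratios reached 2-fold either way, against 4.31% of the 12842 gene promoters with overlapping peaks. The median log2 ratio was 0.03, the same as over all those promoters, with a range of −0.19 to 0.30. The summits in the 2 libraries lay 1 to 18 bp apart.

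**Figure D1:**
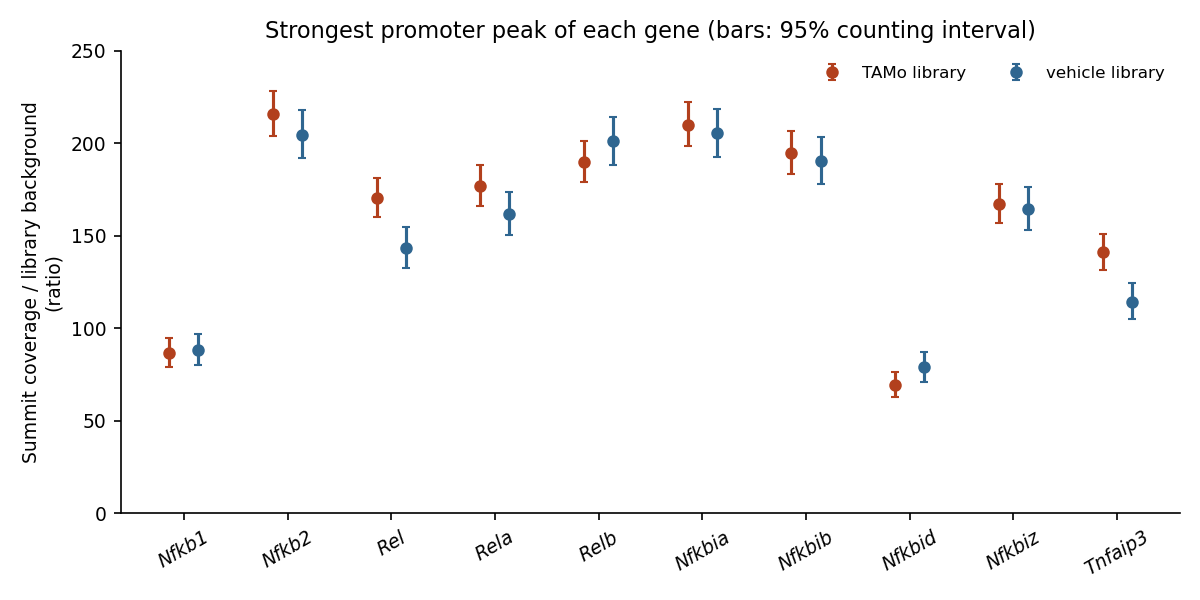
Promoter coverage of the 10 genes. Points give summit coverage as a multiple of each library's background (y axis) for each gene (x axis), TAMo in red to the left of vehicle in blue, and bars are 95% intervals of counting error. The bars of the libraries do not overlap at Rel and Tnfaip3 and overlap at the other 8 genes.

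Among the subunit genes, Nfkb1, which encodes a precursor that is processed to a DNA-binding subunit without an activation domain, had the lowest promoter coverage, 503 reads in the TAMo library and 415 reads in the vehicle library (log2 −0.03, −0.22 to 0.17). Nfkb2, which encodes the related precursor of the non-canonical pathway, had the highest, with 1252 reads in the TAMo library and 963 reads in the vehicle library (log2 0.08, −0.05 to 0.20). Both intervals include 0. Rel, the subunit c-Rel that lymphocytes use heavily after antigen stimulation, had 989 reads in the TAMo library and 674 reads in the vehicle library (log2 0.25, 0.11 to 0.39). Rela, the main activating subunit of the canonical pathway, had 1027 reads in the TAMo library and 760 reads in the vehicle library (log2 0.13, −0.00 to 0.27). Relb, the partner of the processed Nfkb2 product, had 1102 reads in the TAMo library and 946 reads in the vehicle library (log2 −0.08, −0.21 to 0.04), at intronic summits 640 bp past the start in the TAMo library and 624 bp past it in the vehicle library. Of the 5 subunit genes, Rel alone had an interval that lay above 0, and this rests on its strongest promoter region: the other 2 promoter regions of Rel had log2 ratios of −0.12 and −0.15, so that the median over the 3 was −0.12.

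Among the IκB genes and Tnfaip3, Nfkbia encodes IκBα, the inhibitor that is rapidly degraded and resynthesised. It had 1219 reads in the TAMo library and 966 reads in the vehicle library (log2 0.03, −0.09 to 0.16). Nfkbib, which encodes IκBβ, had 1130 reads in the TAMo library and 896 reads in the vehicle library (log2 0.03, −0.10 to 0.16). Its start lies 95 bp from that of Sirt2, so the peak covers both promoters. Nfkbid, which encodes the nuclear IκB protein IκBNS, had the lowest ratio, with 402 reads in the TAMo library and 371 reads in the vehicle library (log2 −0.19, −0.39 to 0.02). Nfkbiz, which encodes the nuclear IκBζ, had 969 reads in the TAMo library and 774 reads in the vehicle library (log2 0.02, −0.12 to 0.16). Tnfaip3, which encodes a ubiquitin-editing enzyme that shuts down signalling upstream of NF-κB, had the highest ratio, with 818 reads in the TAMo library and 538 reads in the vehicle library (log2 0.30, 0.14 to 0.46). The 2 intervals above 0, those of Rel and Tnfaip3, compare with 26.2% of all gene promoters, and none lay below 0, against 17.7%. The median of all shared regions of the series lies at 0.28, and relative to it 1 of the 10 promoters, that of Tnfaip3 at 0.03, was higher in the TAMo library, in place of 7 of 10.

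Promoter sequence was available for 7 of the 10 genes in RefSeq's table for GRCm38.p6, as 12 windows of 250 bases before an annotated start, since some genes have several starts. Nfkb1, Relb and Nfkbiz were not among them. The κB consensus (GGG, a purine, any 2 bases, 2 pyrimidines and CC), searched like all motifs here on both strands, occurred in 7 of the 12 windows and in 5 of the 7 genes (Nfkb2, Rel, Nfkbia, Nfkbid and Tnfaip3), against 7.25% of the 32851 windows of the table. The stricter κB core (GGGA and TTCC with any 2 bases between them), whose matches are also matches of the consensus, occurred in 3 of the 12 windows, against 1.21% of all. The AP-1 motif TGANTCA occurred in 2 of the 12, against 6.75%. Also searched were the CRE TGACGTCA (1.55% of all windows), the NFAT core TGGAAA (18.6%), the Runx core TGTGGT (14%), the ETS motif CCGGAAG (6.91%) and the GC box GGGCGG (32.7%). The GC box occurred in most of the 12 windows, at Nfkb2, Rel, Rela, Nfkbia, Nfkbid and Tnfaip3. The NFAT core occurred at Nfkb2, Nfkbia, Nfkbid and Tnfaip3, the Runx core at Rel and Nfkbid, and the CRE at Nfkbid. No window of the 12 held the ETS motif. Whether the κB letters go with GC-rich sequence was not tested. A match is a string of letters and does not show that a factor was bound.

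The windows of Nfkbia, Rel and the second start of Nfkbid are shown because they carry the κB letters, in regions with log2 ratios of 0.03 (Nfkbia), 0.25 (Rel) and −0.06 (Nfkbid); capitals mark matches of the κB consensus on either strand, and each sequence runs 5′ to 3′ on the strand of its gene and ends at the base before the start.
Nfkbia, chr12:55492648-55492897, minus strand: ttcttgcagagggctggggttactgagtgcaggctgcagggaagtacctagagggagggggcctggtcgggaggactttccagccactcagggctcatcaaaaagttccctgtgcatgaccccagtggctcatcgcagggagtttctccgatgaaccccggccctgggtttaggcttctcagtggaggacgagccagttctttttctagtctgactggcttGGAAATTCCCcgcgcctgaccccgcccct
Rel, chr11:23770970-23771219, minus strand: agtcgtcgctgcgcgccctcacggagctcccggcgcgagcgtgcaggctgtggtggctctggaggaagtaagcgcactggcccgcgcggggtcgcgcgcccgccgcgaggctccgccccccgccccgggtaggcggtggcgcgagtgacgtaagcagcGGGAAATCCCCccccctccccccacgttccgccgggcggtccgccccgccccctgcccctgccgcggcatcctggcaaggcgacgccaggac
Nfkbid, chr7:30422156-30422405, plus strand: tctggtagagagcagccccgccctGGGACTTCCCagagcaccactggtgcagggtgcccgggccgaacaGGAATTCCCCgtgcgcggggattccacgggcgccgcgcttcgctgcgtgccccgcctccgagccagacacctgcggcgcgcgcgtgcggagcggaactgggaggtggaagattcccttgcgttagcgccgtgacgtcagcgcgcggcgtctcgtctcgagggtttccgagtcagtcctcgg

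In Nfkbia the match began 29 bases before the start, and it overlaps a match of the NFAT core. In Rel a pair of overlapping matches fills a run of 11 bases that begins 92 bases before the start, and the window also holds 5 GC boxes. Nfkbid had matches 226 and 181 bases before this start, and a CRE between them and the start.

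Nfkb2 and the first start of Tnfaip3 had κB letters closest to the start. Stretches of 30 bases around them show where they lie, with capitals only for the match that each stretch was cut around.
Nfkb2, chr19:46304684-46304713, plus strand: cacgggatcgtcacGGGAATTCCCcccctc
Nfkb2, chr19:46304712-46304741, plus strand: tcggggggccgaaaGGGGCTTTCCcggctg
Tnfaip3, chr10:19015520-19015549, minus strand: aggtgactcacgcgGGGACACCCCggggcg
Tnfaip3, chr10:19015407-19015436, minus strand: ctggaatttccatcGGAAATCCCCctgttg

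These matches began 39 and 11 bases before the start in Nfkb2 and 125 and 12 bases before it in Tnfaip3; in the first Nfkb2 stretch another match overlaps it, 1 base further on. The 7 windows with κB letters lay in 6 distinct regions with a peak in both libraries, and the log2 ratios of those regions were −0.15 to 0.30. Of the 5 windows without, 4 lay in such a region, with ratios of −0.19 to 1.51. The value of 1.51 belongs to a second, inner start of Tnfaip3, whose window held none of the 8 motifs searched; it is shown for that reason.
Tnfaip3 inner start, chr10:19011964-19012213, minus strand: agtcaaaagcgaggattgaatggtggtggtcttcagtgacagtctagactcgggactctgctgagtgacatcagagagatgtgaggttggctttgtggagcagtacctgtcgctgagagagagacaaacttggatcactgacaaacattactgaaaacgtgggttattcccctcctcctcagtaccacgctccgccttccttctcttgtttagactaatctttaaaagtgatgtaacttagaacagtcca

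The inner Tnfaip3 start, inside an intron of the longer transcripts, was the one promoter region of the 18 at these genes with a ratio of at least 2-fold (5.56%, against 4.92% of all shared promoter regions), and none was at least 2-fold lower (0.919% of all). At chr10:19011812-19012323 the summit had 803 reads in the TAMo library and 229 reads in the vehicle library, a 2.84-fold ratio (log2 1.51, 1.29 to 1.73). The region at the first start, less than 4 kb away, had 818 reads in the TAMo library, about as many as the inner one, and 538 reads in the vehicle library. The inner region was named after its values had been seen.

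The next comparison counted the peaks around the genes. The 10 genes had 229 peaks in the TAMo library and 195 in the vehicle library, a ratio of 1.17, whereas the whole lists differed by a ratio of 1.41. Of the TAMo peaks at these genes, 57 (24.9%, 95% Wilson interval 19.7 to 30.9%) overlapped no vehicle peak, against 39.5% of all TAMo peaks. Of the vehicle peaks at these genes, 15 (7.69%, 4.72 to 12.3%) overlapped no TAMo peak, against 12.5% of all vehicle peaks. Both intervals treat peaks as independent, although Tnfaip3 alone supplied 21 of the 57, and they are not a test of a difference. Distal shared regions at these genes were also better covered than most, and the part of coverage in these shares was not tested. The absence of a peak from a list means that none was called there, not that the site was closed, and the TAMo list is the longer one: cut to the length of the vehicle list, strongest first, it left 194 peaks in the TAMo library, against 195 in the vehicle library, with 33 peaks in the TAMo library alone and 26 in the vehicle library alone.

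**Figure D2:**
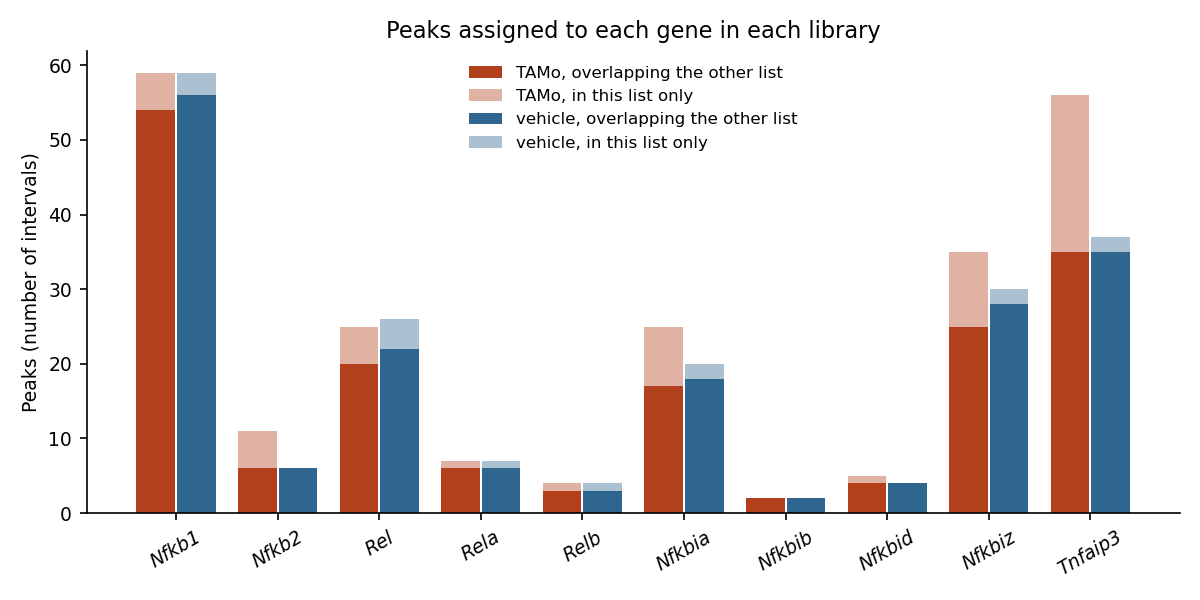
Numbers of peaks assigned to each of the 10 genes, TAMo bars (red) left of vehicle bars (blue), with the peaks that overlapped none of the other library in the pale top part. Tnfaip3 had 56 peaks in the TAMo library and 37 in the vehicle library, whereas Nfkb1 had 59 in each.

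Tnfaip3 had the widest gap in number, with 56 peaks in the TAMo library and 37 in the vehicle library, a ratio of 1.51 beside the 1.41 of the whole lists. Of the 56, 21 were in the TAMo library alone (37.5%, against 39.5% of all TAMo peaks). Of the 37, 2 were in the vehicle library alone (5.41%, against 12.5% of all vehicle peaks). Nfkb2 had 11 peaks in the TAMo library and 6 in the vehicle library, Nfkbia had 25 in the TAMo library and 20 in the vehicle library, and Nfkbiz had 35 in the TAMo library and 30 in the vehicle library. Peaks in the TAMo library alone numbered 5 at Nfkb2 (45.5%), 8 at Nfkbia (32%) and 10 at Nfkbiz (28.6%), against the same 39.5%. At Nfkb1, with 59 peaks in each library, 5 were in the TAMo library alone (8.47%, against 39.5% of all TAMo peaks). At the same gene 3 were in the vehicle library alone (5.08%, against 12.5% of all vehicle peaks). Rel had 25 peaks in the TAMo library and 26 in the vehicle library. The 4 smallest loci had nearly equal numbers: Rela had 7 in each, Relb 4 in each, Nfkbib 2 in each, and Nfkbid 5 in the TAMo library and 4 in the vehicle library.

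Few of the one-library peaks were strong. Among the 50000 strongest peaks of each list, 87 of the TAMo list and 95 of the vehicle list lay at these genes. Of these, 1 was in the TAMo library alone (1.15%, against 5.41% of all strong TAMo peaks) and 2 were in the vehicle library alone (2.11%, against 1.07%). The TAMo peak, chr19:46234352-46234742, had 159 reads and lay 69786 bp upstream of Nfkb2, in an intron of Gbf1. The vehicle peaks were chr3:135621840-135622289, with 130 reads in an intron of Nfkb1, and chr16:55735320-55736084, with 173 reads between genes and 86486 bp past an Nfkbiz start. Their −log10 q values, as the authors' peak caller gave them, were 162 for the peak in the TAMo library and 42.6 and 85.6 for those in the vehicle library.

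The third comparison used the 171 regions with a peak in both libraries, where both summits have a read coverage. Their median log2 ratio was 0.30 (quartiles −0.10 and 0.71), against 0.28 over all shared regions of the series. The 153 distal regions, over 1 kb from any start, had a median of 0.35, and the 18 promoter regions a median of 0.03, against 0.37 and 0.05 over all regions of each kind. Of the 171, 28 had at least 2-fold more coverage in the TAMo library (16.4%, against 21.9% of all shared regions) and 3 had at least 2-fold less (1.75%, against 3.19%). The intervals of 80 lay above 0, against 43.9% of all regions, those of 27 lay below 0, against 13.7%, and 64 included 0. Relative to the series-wide median of 0.28, 16 regions reached 2-fold above and 8 reached 2-fold below, and 87 lay above that median and 84 below it. Distal regions at these genes were better covered than most, with medians of 224 reads in the TAMo library and 126 reads in the vehicle library, against 129 reads in the TAMo library and 68 reads in the vehicle library over all distal shared regions. Of these 153, 27 were 2-fold higher or more (17.6%, against 25.4% of all distal regions) and 3 were 2-fold lower or more (1.96%, against 3.65%). The intervals of 75 distal regions lay above 0, against 47.3% of all, and those of 26 lay below 0, against 13.1%.

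**Figure D3:**
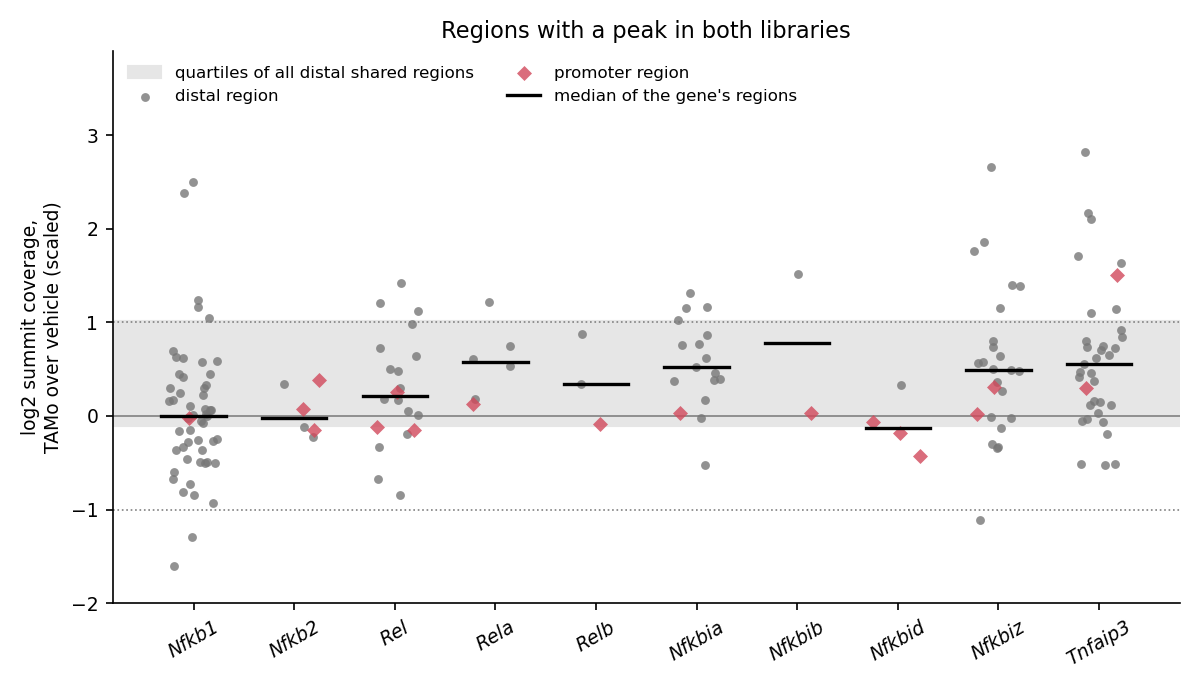
Log2 ratios of summit coverage, TAMo over vehicle, at each region with a peak in both libraries, by gene; diamonds are promoter regions, grey points distal regions, black bars the gene's median, dotted lines the 2-fold limits and the grey band the quartiles of all distal shared regions of the series (−0.11 and 1.01). The 53 regions of Nfkb1 spread to both sides of 0 (median 0.00), and the 35 of Tnfaip3 lie mostly above it (median 0.55).

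Grouped by role, the shares at 2-fold stood below or near the 21.9% higher and 3.19% lower of all shared regions. The subunit genes had 88 shared regions with a median of 0.07, of which 9 (10.2%) reached 2-fold higher in the TAMo library and 2 reached 2-fold lower. The IκB genes had 48 with a median of 0.46, of which 11 (22.9%) reached 2-fold higher and 1 lower. Tnfaip3 had 35 with a median of 0.55, of which 8 (22.9%) reached 2-fold higher and none lower. Nfkb1 supplied 53 of the 88 subunit regions, and without it the other subunit genes had a median of 0.25, which lies just under the series-wide 0.28. Leaving out 1 gene at a time, the median of the remaining genes ranged between 0.20, without Tnfaip3, and 0.40, without Nfkb1.

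Around Tnfaip3 the regions with the largest ratios lay far upstream of the gene. The largest of all at the 10 genes was chr10:19091853-19092457, 76761 bp upstream of the start and between genes, with 479 reads in the TAMo library and 55 reads in the vehicle library, a 7.06-fold ratio (log2 2.82, 2.42 to 3.25). The region chr10:19077822-19078531, 62818 bp upstream, had 542 reads in the TAMo library and 98 reads in the vehicle library (log2 2.16, 1.85 to 2.49). The region chr10:19086989-19087376, 71772 bp upstream, had 551 reads in the TAMo library and 104 reads in the vehicle library (log2 2.10, 1.80 to 2.42). All 6 shared regions more than 60 kb upstream, a group picked after its values had been seen, had intervals above 0, against 47.3% of all distal shared regions. They had 130 to 551 reads in the TAMo library, 34 to 133 reads in the vehicle library and log2 ratios of 0.47 to 2.82. Of them, 4 were at least 2-fold higher, against 25.4% of all distal shared regions. Because the group was picked by its values, these shares do not test it.

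Further 2-fold regions lay elsewhere in the locus, and were named after their values had been seen. The region chr10:19028253-19028788, 13125 bp upstream, had 492 reads in the TAMo library and 122 reads in the vehicle library (log2 1.71, 1.42 to 2.01), and the downstream regions that begin at positions 18983572 and 18949187 had log2 ratios of 1.10 and 1.15. The strongest distal one by the sum of both libraries' −log10 q, chr10:19062006-19062870, 46908 bp upstream, had 1329 reads in the TAMo library and 619 reads in the vehicle library (log2 0.80, 0.66 to 0.94). Of the 35 regions, 22 had an interval above 0, against 43.9% of all shared regions, and 3 had one below 0, against 13.7%. The log2 ratios of those 3 were −0.52, −0.51 and −0.52. The nearest gene is not shown to be the one a region acts on.

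**Figure D4:**
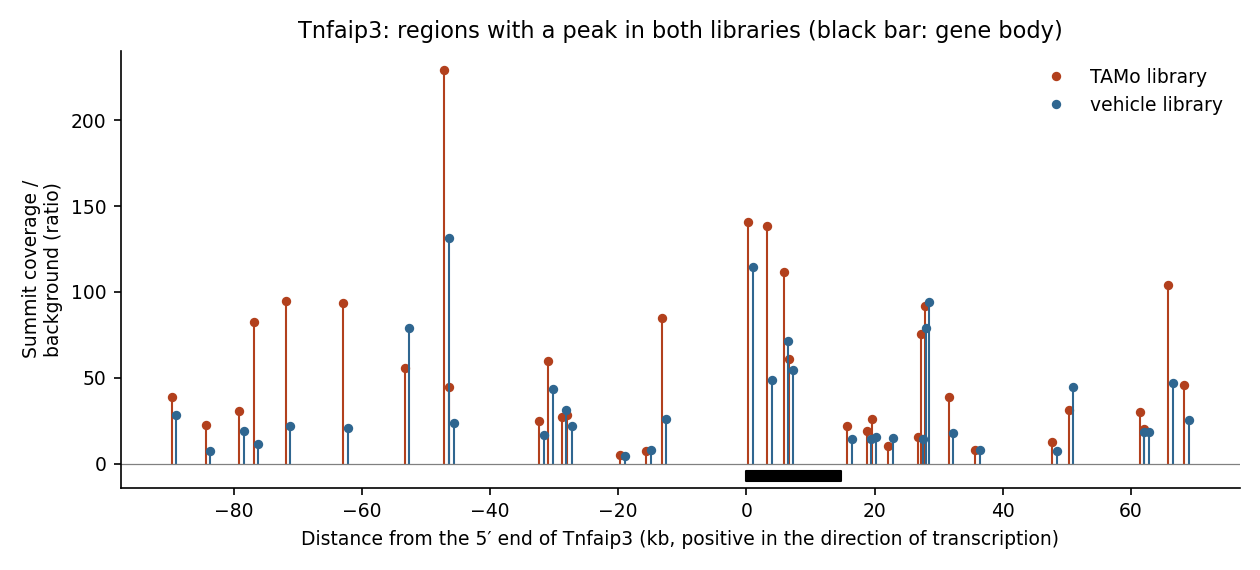
Shared regions around Tnfaip3 by distance from the gene's 5′ end in kb (x axis, upstream to the left), with stems for summit coverage as a multiple of background (y axis), TAMo in red and, drawn slightly to its right, vehicle in blue. Beyond 60 kb upstream the red stems stand above the blue ones at all 6 regions, up to a log2 ratio of 2.82, whereas at the first start the log2 ratio was 0.30.

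Nfkbiz encodes a nuclear IκB protein that acts on a subset of NF-κB targets. Of its 25 shared regions, 6 reached 2-fold higher in the TAMo library (21.9% of all shared regions did) and 1 reached 2-fold lower (3.19%). The largest ratio was at chr16:55809844-55810658, 11765 bp past the nearest start and beyond the end of the gene, with 256 reads in the TAMo library and 33 reads in the vehicle library, a 6.29-fold ratio (log2 2.65, 2.13 to 3.22). Further downstream, chr16:55783073-55783754 had 385 reads in the TAMo library and 86 reads in the vehicle library (log2 1.86, 1.52 to 2.21), and chr16:55776304-55776805 had 92 reads in the TAMo library and 22 reads in the vehicle library (log2 1.76, 1.08 to 2.5). The region that was lower, chr16:55745154-55745453, had 41 reads in the TAMo library and 72 reads in the vehicle library (log2 −1.11, −1.71 to −0.54). The strongest distal region, chr16:55753927-55754862, had 1248 reads in the TAMo library and 648 reads in the vehicle library (log2 0.64, 0.50 to 0.78), so the 2-fold regions of Nfkbiz were not its strongest ones.

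Nfkb1 had a median log2 ratio of 0.00 over its 53 shared regions. Of these, 15 had an interval above 0, against 43.9% of all shared regions, and 19 had one below 0, against 13.7%. At 2-fold, 5 were higher in the TAMo library (21.9% of all shared regions were) and 2 were lower (3.19%). On the higher side, chr3:135736116-135736615, 44722 bp upstream, had 286 reads in the TAMo library and 41 reads in the vehicle library (log2 2.5, 2.02 to 3.01), and the intronic chr3:135649292-135649695 had 173 reads in the TAMo library and 27 reads in the vehicle library (log2 2.38, 1.79 to 3.02). On the lower side, chr3:135730128-135730392, 38727 bp upstream, had 51 reads in the TAMo library and 126 reads in the vehicle library (log2 −1.61, −2.11 to −1.13), and the intronic chr3:135673146-135673366 had 74 reads in the TAMo library and 147 reads in the vehicle library (log2 −1.29, −1.72 to −0.88). The highest and the lowest ratio upstream of the gene thus lay within 10 kb of each other. One more, chr3:135619052-135619622 in an intron, had 329 reads in the TAMo library and 113 reads in the vehicle library (log2 1.24, 0.93 to 1.56). The strongest distal region, chr3:135594177-135595208, also in an intron, had 1119 reads in the TAMo library and 563 reads in the vehicle library (log2 0.69, 0.54 to 0.84). The distal region with most vehicle reads, chr3:135665491-135666500 in an intron and picked after its values had been seen, had 1000 reads in the TAMo library and 970 reads in the vehicle library (log2 −0.26, −0.39 to −0.13).

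**Figure D5:**
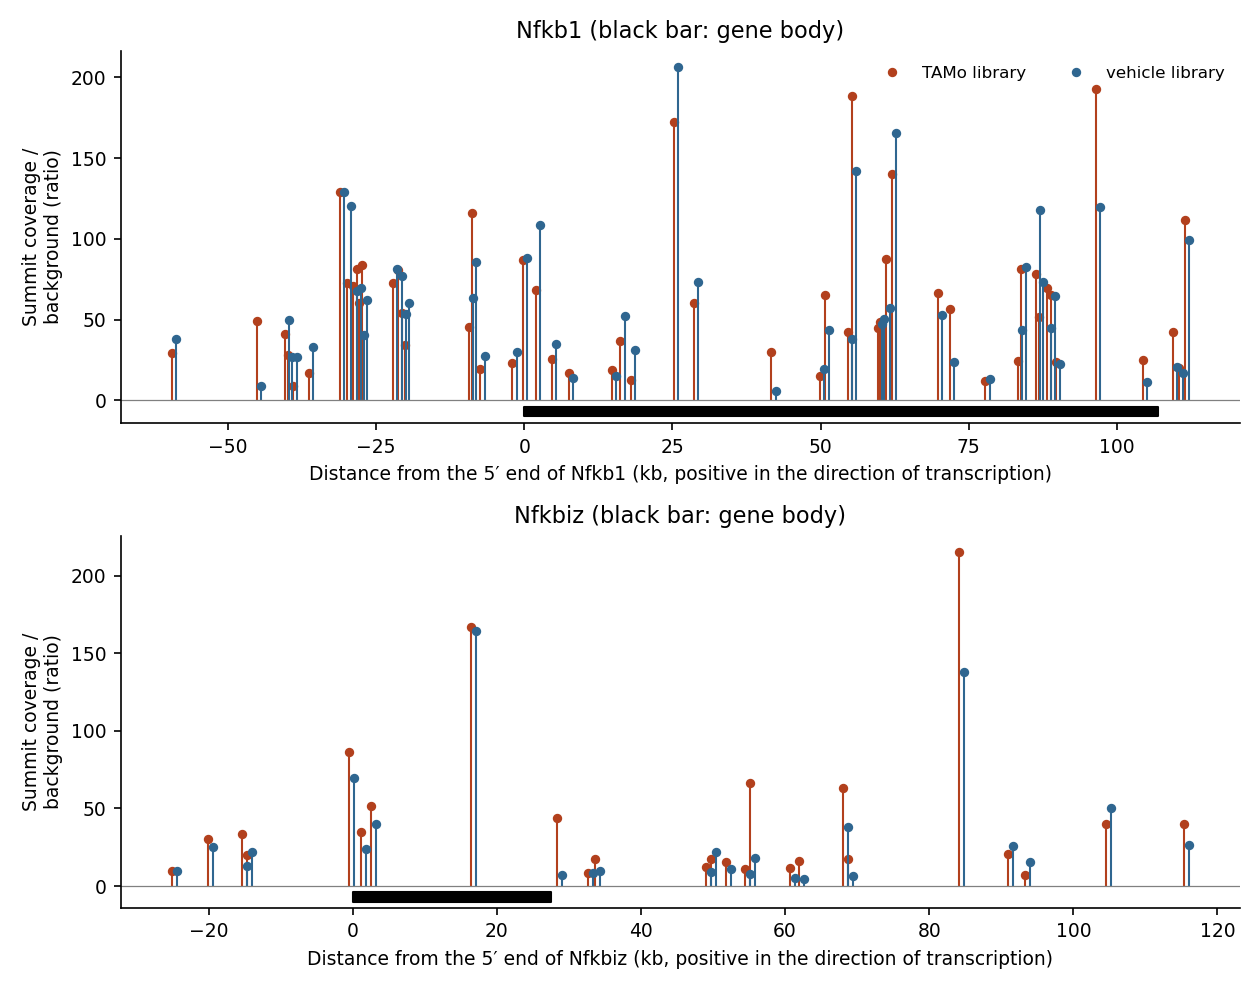
Shared regions around Nfkb1 (top) and Nfkbiz (bottom) by distance from the gene's 5′ end in kb (x axis, positive in the direction of transcription), with stems for summit coverage as a multiple of background (y axis), TAMo in red and vehicle in blue. At Nfkb1 either colour can be the taller one, with log2 ratios between −1.61 and 2.5, and at Nfkbiz the ratio reaches 2.65 just past the end of the gene.

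Nfkbia had 17 shared regions with a median of 0.52. Of these, 4 reached 2-fold higher in the TAMo library, against 21.9% of all shared regions, and none lower. The strongest distal one, chr12:55466130-55467386, had 1295 reads in the TAMo library and 804 reads in the vehicle library (log2 0.39, 0.26 to 0.51), 26150 bp past the start and beyond the gene's end. The 3 largest ratios were at chr12:55505035-55505332, 12550 bp upstream, with 89 reads in the TAMo library and 29 reads in the vehicle library (log2 1.32, 0.70 to 1.97), at chr12:55474276-55474537 with 91 reads in the TAMo library and 33 reads in the vehicle library (log2 1.16, 0.57 to 1.78), and at chr12:55464858-55465099 with 462 reads in the TAMo library and 168 reads in the vehicle library (log2 1.16, 0.90 to 1.42).

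Nfkbib had a single distal shared region, chr7:28765203-28765675, in an intron 1136 bp past the start, with 769 reads in the TAMo library and 218 reads in the vehicle library, a 2.86-fold ratio (log2 1.52, 1.3 to 1.74). It lies about 1 kb from the promoter peak, whose coverage was close in both libraries. Nfkbid had 4 shared regions with a median of −0.13 and none at 2-fold. Its strongest distal region, chr7:30431706-30432165, had 158 reads in the TAMo library and 102 reads in the vehicle library (log2 0.33, −0.04 to 0.70).

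Against 21.9% of all shared regions of the series, 3 of the 20 at Rel reached 2-fold higher in the TAMo library. They were chr11:23818818-23819147, with 109 reads in the TAMo library and 33 reads in the vehicle library (log2 1.42, 0.85 to 2.03), the intronic chr11:23749841-23750278, with 227 reads in the TAMo library and 80 reads in the vehicle library (log2 1.2, 0.83 to 1.59), and chr11:23822976-23823577, with 179 reads in the TAMo library and 67 reads in the vehicle library (log2 1.12, 0.70 to 1.54). The strongest distal region, chr11:23786092-23786787, had 789 reads in the TAMo library and 386 reads in the vehicle library (log2 0.73, 0.55 to 0.91). The median over the 20 was 0.22, which falls below 0 when ratios are centred on the series-wide median.

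Rela had 6 shared regions with a median of 0.57, of which 1 reached 2-fold higher, against 21.9% of all shared regions. That region, the intronic chr19:5643398-5643940, had 289 reads in the TAMo library and 101 reads in the vehicle library (log2 1.21, 0.88 to 1.56). The strongest distal region of Rela, chr19:5648539-5649433, had 652 reads in the TAMo library and 467 reads in the vehicle library (log2 0.18, 0.01 to 0.35). Relb had 3 with a median of 0.34, and its strongest distal region, the intronic chr7:19618915-19619378, had 271 reads in the TAMo library and 173 reads in the vehicle library (log2 0.34, 0.06 to 0.63). Nfkb2 had 6 with a median of −0.02. Its strongest distal region, in a coding exon at chr19:46309121-46309362, had 267 reads in the TAMo library and 254 reads in the vehicle library (log2 −0.23, −0.48 to 0.02). Neither Relb nor Nfkb2 had a region at 2-fold.

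The promoters of other genes of the pathway give the context. Of 44 regulators (kinases, adaptors, ubiquitin enzymes and further inhibitors), 42 were on these chromosomes and had overlapping promoter peaks, with a median log2 ratio of 0.01. One, Ikbke, which encodes an IKK-related kinase, was at least 2-fold higher, with 737 reads in the TAMo library and 233 reads in the vehicle library (log2 1.36), against 3.55% of all gene promoters, and none was 2-fold lower, against 0.763%. The Ikbke summits lay 813 bp upstream of the start in the TAMo library and 823 bp upstream in the vehicle library. After Ikbke the highest were Traf6 (log2 0.69), Bcl3 (0.40) and Birc3 (0.27), and the lowest were Tnip3 (−0.43), Tab1 (−0.41), Traf3 (−0.24) and Otud7b (−0.20). The Traf6 summits lay 946 bp past the start in the TAMo library and 931 bp past it in the vehicle library. Those of Traf3 lay 498 bp apart. Bcl3 encodes another nuclear IκB protein, and Birc3 and Traf3 are parts of the ligase complex that restrains the non-canonical pathway.

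Of 25 known NF-κB target genes, 23 had overlapping promoter peaks, with a median log2 ratio of 0.15, against 0.03 over all gene promoters. None reached 2-fold either way, against 4.31% of all gene promoters. The intervals of 11 lay above 0, against 26.2% of all, and those of 2 lay below 0, against 17.7%. The highest were Csf2 (0.64), Ccl5 (0.39), Ltb (0.38) and Ccl4 (0.35), all genes of cytokines or chemokines. Csf2 had 274 reads in the TAMo library and 143 reads in the vehicle library, at summits 206 bp apart. The lowest were Ccl3 (−0.70), Lta (−0.59), Ier3 (−0.13) and Tnfrsf9 (−0.08), so cytokine and chemokine genes stood at both ends of the list.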

How the data were processed

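The members and the lists of regulators, targets and markers were chosen with earlier results of these data known. Per the submitters' processing notes, the authors used Trimmomatic 0.36, Bowtie2 and MACS2 with build mm10; settings, duplicate removal and read shifting are not stated there. The authors deposited 1 peak list per library, not pooled, with per-peak summit position, score, fold enrichment (a ratio over local background), −log10 p and −log10 q. The TAMo list held 225656 rows and the vehicle list 163215, and rows of the same interval were counted as 1 peak. The score was not used.

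Summit coverage in whole reads was recovered from the deposited fold, read as (coverage + 1)/(background + 1), and −log10 p, read as a Poisson upper tail; whole numbers were matched within 1% of a step, which left out 48 TAMo rows and 30 vehicle rows. Whether the caller counted reads or fragments is not stated either. Each library was scaled by its most frequent background value, and the recovery was checked on simulated data. Overlaps of at least 1 bp joined peaks into regions, and each region took its strongest summit per library. Start sites were those of GENCODE M21 (basic set, same assembly), and a promoter reached 1 kb to each side of one. A gene's promoter value is its strongest promoter peak in each library, with a ratio only where both overlap. Regions named are, per gene, the strongest promoter and distal regions by the summed −log10 q of both libraries, strong one-library peaks and up to 3 regions with the largest ratio either way among those at 2-fold; exceptions are said to be picked after their values were seen. Of the regulators and targets, the 4 highest and 4 lowest are named. Sequences are RefSeq's for GRCm38.p6, which is mm10. Motif counts at summits were planned but need a genome, which was not used here. Python 3.11.15, numpy 2.4.6, scipy 1.17.1, pandas 2.3.3 and matplotlib 3.10.9 were used. The closing section gives the effect of the alternatives, such as a 50 kb limit or another centring.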

Additional observations from a re-analysis of the deposited data

How the results depend on the processing

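No paired analysis was possible because each group had 1 library, and for the same reason none could be left out. Centring on all shared regions (a shift of 0.28) moved the shared-region median at these genes to 0.026, the promoter median to −0.24, the regulators to −0.26 and the targets to −0.12, and gave 16 regions at least 2-fold higher and 8 lower, in place of 28 higher and 3 lower. Centring on promoter regions (a shift of 0.05) gave 0.25, −0.014, −0.035 and 0.11 for the same medians. The shared-region median of 0.30 became 0.28 with a 50 kb limit, 0.26 with summits within 100 bp and 0.26 with −log10 q of at least 10 in both libraries, and the targets' median became 0.11 with promoters of 2.5 kb. The shared-region median of Tnfaip3, 0.55, became 0.39 with a 50 kb limit and 0.28 when centred on all shared regions. It became 0.62 with −log10 q of at least 10 in both libraries. With the TAMo list shortened, the genes had 194 peaks in the TAMo library and 195 in the vehicle library, of which 33 peaks were in the TAMo library alone and 26 in the vehicle library alone. Strong peaks in the TAMo library alone numbered 0 with a 50 kb limit or among the 25000 strongest; those in the vehicle library alone numbered 1 with a 50 kb limit, 1 with gene-level start sites and 0 among the 25000 strongest. The causes were not tested beyond the alternatives' own construction. With gene-level start sites the Nfkbiz promoter ratio was 0.31, and with promoters of 2.5 kb that of Nfkb1 was −0.26. With the median over a gene's shared promoter regions in place of the strongest promoter peak, the ratio was −0.12 at Rel, which turned its direction, 0.16 at Nfkbiz and 0.90 at Tnfaip3. Peaks near the calling threshold, at coverages of 14 reads in the TAMo library and 13 reads in the vehicle library at the lowest, depend on depth, and regions called in 1 library have no ratio.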
